A study of Homo sapiens with 9 samples.

Results

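Transcripts of homologous recombination, the Fanconi anaemia pathway and mismatch repair were followed in MDA-MB231 cells, an established human breast cancer cell line. The 38 genes come from a list that was chosen with earlier results of these data known. Where a gene had several probe sets, the brightest on average represents it. Of the 38 genes, 34 had a probe set annotated to that gene alone, among 18132 genes in all. BRCA2, FANCA, FANCD2 and RBBP8 had none and were not analysed here. Cells had been plated at 70% confluency and treated on the next day, in fresh medium with serum, for 24 h. PD325901, an inhibitor of the kinase MEK upstream of ERK, was given at 3 µM to 3 cultures. BB94 (batimastat), a broad metalloproteinase inhibitor, was given at 10 µM to 2 cultures, and 4 control cultures received 0.1% DMSO. Both inhibitors came from 10 mM DMSO stock, and the sources used here do not say whether DMSO was levelled between the groups. Each culture was read on 1 Affymetrix PrimeView array, and the labels call the cultures biological replicates. All values are log2 probe set summaries, so a difference of 1 is a change of 2-fold.

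Homologous recombination copies lost sequence at a DNA break from the sister chromatid, and cells use it mainly in S and G2 phase. BRCA1 with BARD1 promotes the trimming of the break and, through PALB2 and BRCA2, the loading of a recombinase on the exposed strand. The Fanconi anaemia proteins unhook cross-links between the strands and pass the broken intermediates to recombination, and mismatch repair corrects copying errors behind the replication fork. Many genes of these pathways are known targets of E2F factors, which the cyclin D to RB axis governs. MEK inhibition acts on that axis through cyclin D1.

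The arrays were checked before the repair genes were compared. VIM, CD44, AXL, CAV1, MSN and SPARC, markers of the mesenchymal-like state of this line, lay above background on all 9 arrays. ESR1, PGR, CDH1 and PTPRC lay below it on all 9, as did CD3E, CD14, VWF, CDH5 and DCN. EPCAM, KRT8, KRT18, FOXA1, GATA3 and the fibroblast marker COL1A1 lay above it on all 9. Of 8 luminal markers, 3 were called higher and 1 lower under PD325901, against 22.8% and 12.3% of all genes, and CDH1, below background, is among those called higher. Their median difference from the control mean was 0.22 to 0.38 on PD325901 arrays. Of 7 measured leukocyte, endothelial and fibroblast markers, none was called by limma with either inhibitor, with 1 at an unadjusted p under 0.05 for each. The part of these markers in the results was not tested. Background here is the highest of 23 background probe sets on each array, between 6.02 and 6.50, a strict level close to the array medians of 6.05 to 6.34. ACTB control probes at the 3′ end exceeded those at the 5′ end on every array. A larger excess goes with less intact or less fully copied RNA. The log2 excess was 3.50 to 4.15 in PD325901 arrays, 3.91 and 4.22 in BB94 arrays and 2.96 to 3.89 in control arrays. In control replicates 1 to 4 it was 3.89, 3.75, 3.46 and 2.96, and its part in the results was not tested. Control replicates 3 and 4 differed from replicates 1 and 2 in several repair genes. Among these were RAD51AP1, RAD54B, FANCF, RMI1, ATM, ATR, CHEK2, NBN and RPA3.

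PD325901 lowered most of the repair genes. Limma, fitted across all 18132 genes with Benjamini-Hochberg adjustment, called 24 of the 34 lower (adjusted p under 0.05), against 12.3% of all genes. Of the 24, BRIP1 lay below background on all 9 arrays, and 23 were called among the 32 genes above it on at least 1 array. A further fit kept only genes with a mean above 6.02, the lowest of the background levels. It called 24 repair genes lower, with RMI1 added and BRIP1 left out, and 2 higher. Of all genes kept, 20.8% were called lower and 32.4% higher. With arrays centred on their median over genes, 28 of the 34 were called lower, against 28% of all genes. With the arrays as deposited, limma called FANCF and RAD50 higher, against 22.8% of all genes, and 8 were not called. Of the 34, 11 had a called log2 change of -1 or lower, against 2.64% of all genes, and 10 without BRIP1. On 25 of the 34 genes all 3 PD325901 arrays lay below all 4 control arrays, which held for 14.8% of all genes, and on 2 they lay above them, against 25.6% of all genes. The median log2 change of the 34 was -0.67, against 0.08 over all genes. By array, the median difference from the control mean was -0.63, -0.71 and -0.72 in PD325901 replicates 1 to 3 and between -0.11 and 0.09 in the 4 controls. The fall was thus of similar size on each PD325901 array.

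**Figure D1:**
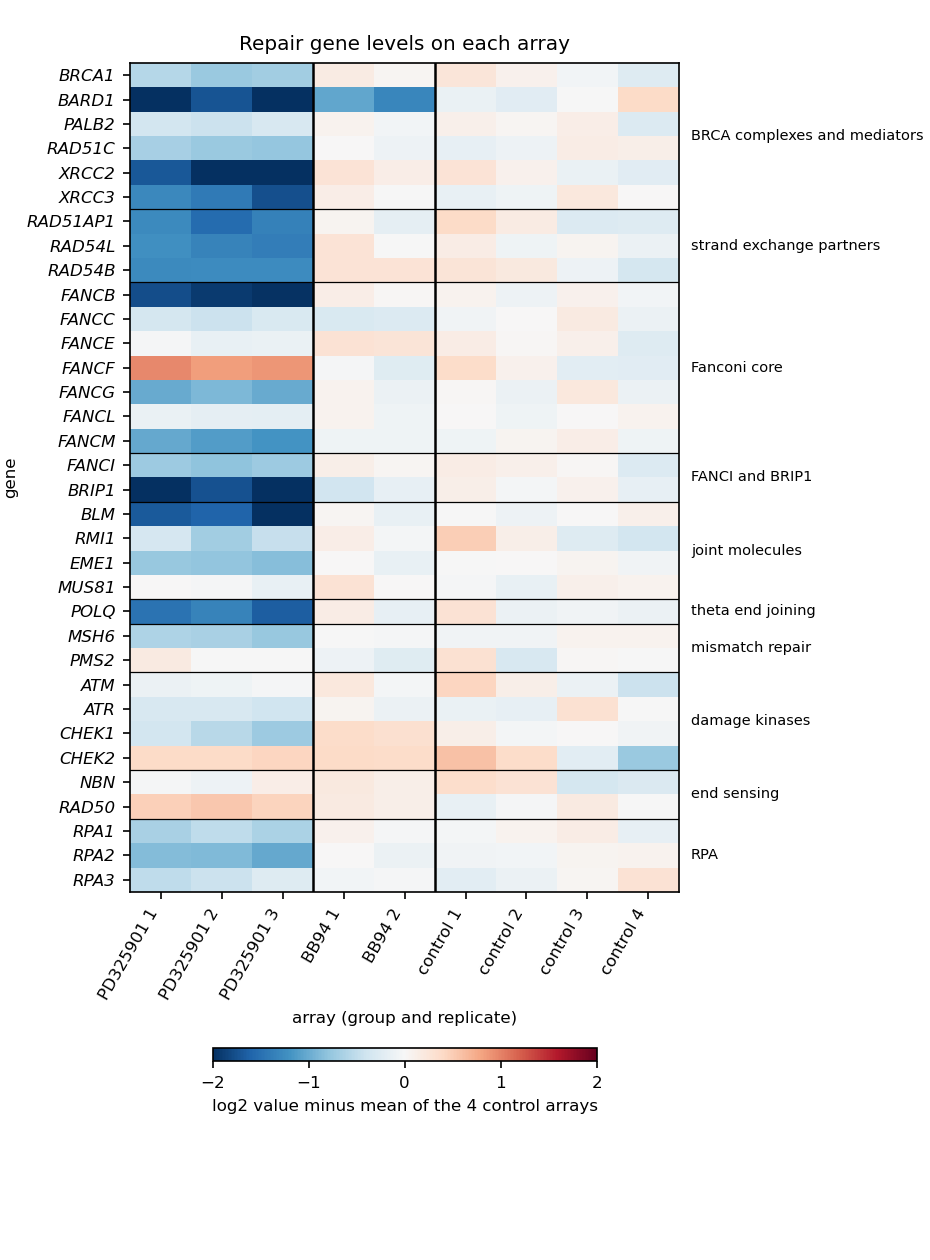
Each of the 34 measured repair genes (rows, in role groups) on each of the 9 arrays (columns), as the log2 value minus the mean of the 4 control arrays; blue is lower and red is higher, and the colours stop at -2 and 2. The 3 PD325901 columns are blue for most genes, FANCF and RAD50 are red there, as is CHEK2, which was not called, and in the 2 BB94 columns BARD1 is the darkest.

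All 6 measured genes of the BRCA complexes and recombination mediators fell under PD325901, with log2 changes between -1.97 and -0.37. XRCC2, which helps to assemble the recombinase filament, had log2 values of 7.17, 6.85 and 6.69 in PD325901 arrays, against 9.15, 8.96, 8.74 and 8.64 in control. The groups did not overlap, and the change of -1.97 (SE 0.14, adjusted p = 2.3e-06) is a 3.92-fold fall. Its probe set carries the suffix that Affymetrix gives to probes matching other sequences, as do those of BRCA1 and FANCE. A second XRCC2 probe set, above background on 2 of 9 arrays, was not called (-0.44, adjusted p = 0.0679), and the mean of both gave -1.21 (adjusted p = 4.1e-05). BARD1, the obligate partner of BRCA1 in a ubiquitin ligase, stood at 6.61, 6.94 and 6.62, against 8.53, 8.44, 8.66 and 9.05 in control. Its 3.86-fold fall (log2 -1.95, SE 0.15, adjusted p = 3.6e-06) again left a clear gap between the groups. XRCC3, which acts with RAD51C late in recombination, read 8.30, 8.17 and 7.83 under PD325901 and 9.44, 9.50, 9.80 and 9.59 in control. It fell 2.79-fold (log2 -1.48, SE 0.13, adjusted p = 6.7e-06), with replicate 3 the lowest.

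BRCA1 itself also fell. It had log2 values of 11.15, 10.98 and 11.02 in PD325901 arrays and 11.96, 11.80, 11.66 and 11.46 in control arrays, a 1.59-fold fall (adjusted p = 9.8e-04). A dimmer probe set of BRCA1, also above background on all 9 arrays, had a log2 change of -1.10 (adjusted p = 4.2e-06). RAD51C fell 1.65-fold, to a mean of 11.04 ± 0.06 (SD, n = 3) against 11.77 ± 0.15 (SD, n = 4) in control (limma adjusted p = 1.6e-04). PALB2, which bridges BRCA1 and BRCA2, had a log2 change of -0.37 (adjusted p = 0.0188), and control replicate 4, at 7.87, lay close to the PD325901 range of 7.72 to 7.82. Leaving out PD325901 replicate 1 or 2 ended the PALB2 call (adjusted p = 0.058 and 0.0749), as did leaving out control replicates 1 and 2 (0.0726). Over 20 alternatives its adjusted p ranged between 4.3e-04 and 0.0749.

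The 3 partners of strand exchange fell by similar amounts, with log2 changes between -1.39 and -1.26. RAD51AP1, which stimulates joint molecule formation, had log2 values of 9.03, 8.77 and 8.95 in PD325901 arrays, against 10.68, 10.46, 10.03 and 10.04 in control. Control replicates 3 and 4 were the lower controls here, and its 2.61-fold fall (log2 -1.39, SE 0.16, adjusted p = 5.8e-05) was -1.65 without them and -1.12 without replicates 1 and 2. RAD54L, a motor protein that moves along DNA during the homology search, read 7.41, 7.29 and 7.24, against 8.78, 8.54, 8.69 and 8.51 in control. It fell 2.49-fold (log2 -1.32, SE 0.10, adjusted p = 3.4e-06). RAD54B, a relative of RAD54L, was nearly the same on the 3 PD325901 arrays, at 9.99, 10.00 and 10.01, against 11.52, 11.46, 11.16 and 10.91 in control. Its fall was 2.40-fold (log2 -1.26, SE 0.13, adjusted p = 3.4e-05). The log2 change of RAD54B was -1.49 without control replicates 3 and 4 and -1.04 without replicates 1 and 2.

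The Fanconi core complex, the ubiquitin ligase that marks FANCI and FANCD2, did not move as a unit. Of its 7 measured members, 4 fell, FANCF rose and FANCE and FANCL were not called. FANCB had log2 values of 6.82, 6.68 and 6.62 in PD325901 arrays, against 8.66, 8.49, 8.67 and 8.54 in control. The spread within each group was small beside the gap, a 3.68-fold fall (log2 -1.88, SE 0.09, adjusted p = 9.6e-08). FANCM, the translocase that anchors the complex to DNA, stood at 7.15, 7.05 and 6.98 under PD325901 and at 8.08, 8.23, 8.30 and 8.08 in control. It fell 2.16-fold (log2 -1.11, SE 0.09, adjusted p = 3.5e-06). FANCG, a core subunit, read 7.49, 7.60 and 7.48, against 8.52, 8.38, 8.71 and 8.37 in control, a 1.96-fold fall (log2 -0.97, SE 0.10, adjusted p = 3.0e-05). FANCC had a smaller log2 change of -0.36 (adjusted p = 0.00979), which ended when PD325901 replicate 2 was left out (adjusted p = 0.0528, the highest of 20 alternatives, with 3.9e-04 the lowest).

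FANCF, an adaptor subunit of the same complex, was higher under PD325901. Its log2 values were 11.11, 10.99 and 11.03 in PD325901 arrays, against 10.51, 10.23, 9.94 and 9.92 in control. All 3 PD325901 arrays lay above all 4 controls, and the rise was 1.86-fold (log2 0.90, SE 0.14, adjusted p = 5.0e-04). Its size depended on the controls: 0.68 without replicates 3 and 4 and 1.12 without replicates 1 and 2. A second bright probe set of FANCF had a log2 change of 1.05 (adjusted p = 2.3e-05), and its dimmest, above background on 3 of 9 arrays, was not called (0.33, adjusted p = 0.0728). FANCE was not called at -0.11 on the log2 scale, with an adjusted p of 0.505 and a 95% interval of -0.34 to 0.13, from a probe set at 11.70 ± 0.07 (SD, n = 3) under PD325901 and 11.80 ± 0.19 (SD, n = 4) in control. FANCL, the catalytic subunit, was not called at -0.17 (adjusted p = 0.128, with a 95% interval of -0.34 to 0.00) on its highest-mean probe set. Its other 2 probe sets, dimmer but above background on all 9 arrays, were called lower at -0.65 and -0.33 (adjusted p = 5.0e-04 and 0.0103). For FANCL the call therefore depended on the probe set.

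Of the 2 measured genes that act just downstream of the core complex, FANCI fell, and BRIP1 lay below background. BRIP1, a helicase that binds BRCA1, had log2 values of 3.88, 4.31 and 3.93 in PD325901 arrays, against 6.17, 6.01, 6.14 and 5.89 in control. Its log2 change of -2.01 (SE 0.12, adjusted p = 6.6e-07) passed the test, but all 9 arrays lay below the background level, as for PMS2. No fold is therefore given, and the size of the change is not measured. A second BRIP1 probe set, also below background on all 9 arrays, was called lower at -1.26 (adjusted p = 1.1e-04). FANCI, the partner of FANCD2 in the clamp that the core complex marks, fell 1.68-fold, to 10.11 ± 0.04 (SD, n = 3) against 10.86 ± 0.19 (SD, n = 4) in control (limma adjusted p = 2.1e-04). The other 2 probe sets of FANCI had log2 changes of -1.16 and -1.27 (adjusted p = 2.1e-06 for each).

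Among the genes that process joint molecules, BLM and EME1 fell and RMI1 and MUS81 were not called. BLM, the helicase mutated in Bloom syndrome, had log2 values of 8.65, 8.72 and 8.30 in PD325901 arrays, against 10.31, 10.23, 10.34 and 10.42 in control. The 4 controls lay within a narrow range, and the fall was 3.41-fold (log2 -1.77, SE 0.11, adjusted p = 8.4e-07). EME1, the regulatory subunit of a nuclease that cuts joint molecules, fell 1.74-fold (adjusted p = 1.7e-05). Its catalytic partner MUS81 stood at -0.05 and was not called (adjusted p = 0.761, with a 95% interval of -0.27 to 0.17). RMI1, which works in a complex with BLM, had log2 values of 10.42, 10.07 and 10.30 in PD325901 arrays and 11.26, 10.88, 10.51 and 10.40 in control. Control replicate 4 overlapped the PD325901 arrays, and the change of -0.50 was not called (adjusted p = 0.0631). Without control replicate 3 or 4 it was called (-0.58 and -0.62, adjusted p = 0.045 and 0.0232), and 10 of 20 alternatives called it, with adjusted p between 5.9e-04 and 0.216. RMI1 stood at -0.81 (adjusted p = 0.00286) without control replicates 3 and 4 and at -0.19 (adjusted p = 0.21) without replicates 1 and 2. A second RMI1 probe set was called at -1.16 (adjusted p = 0.00113) and another was not (-0.44, adjusted p = 0.124).

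POLQ, the polymerase of an error-prone end joining route that backs up recombination, had log2 values of 7.63, 7.76 and 7.45 in PD325901 arrays, against 9.39, 8.99, 9.04 and 8.99 in control. It fell 2.81-fold (log2 -1.49, SE 0.13, adjusted p = 7.1e-06), and control replicate 1 stood above the other 3 controls. With a second POLQ probe set, below background on all 9 arrays, averaged in, the change was -0.98 (adjusted p = 8.2e-06). MSH6, a subunit of the complex that recognises mismatches, fell 1.59-fold (adjusted p = 6.9e-05), from a very bright probe set, at 11.98 ± 0.08 (SD, n = 3) under PD325901 and 12.65 ± 0.08 (SD, n = 4) in control. A dimmer probe set of MSH6 had a log2 change of -1.20 (adjusted p = 6.4e-06). PMS2, which cuts the strand that is to be repaired, was below background on all 9 arrays, at log2 values between 4.04 and 4.66, and gives no measure of change. PMS2 and CHEK2 have related pseudogene copies, and their probe sets carry the same suffix as those of XRCC2, BRCA1 and FANCE.

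The RPA complex, which coats exposed strands before the recombinase is loaded, fell in all 3 subunits. RPA2 fell 1.91-fold (adjusted p = 8.6e-06), RPA1 1.51-fold (adjusted p = 4.8e-04) and RPA3 1.32-fold (adjusted p = 0.0262). The RPA3 call ended when control replicate 3 was left out (adjusted p = 0.0573), PD325901 replicate 1 or 2 (0.109 and 0.0864), or control replicates 3 and 4 (0.0986). Its adjusted p ranged between 0.00215 and 0.109 over 20 alternatives. In RPA2, log2 values were 11.11, 11.09 and 10.95 in PD325901 arrays, against 11.91, 11.92, 12.04 and 12.05 in control. These groups lay well apart.

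Of the 4 damage kinases, CHEK1 and ATR fell and ATM and CHEK2 were not called. CHEK1, the checkpoint kinase activated by ATR, fell 1.46-fold (adjusted p = 0.00109), with log2 values of 11.18, 11.00 and 10.82 in PD325901 arrays, against 11.66, 11.51, 11.55 and 11.47 in control. Its other 5 probe sets were all called lower, at -1.09 to -0.65. ATR, the kinase that responds to exposed strands, was at -0.34 on the log2 scale (adjusted p = 0.0412), and 11 of 20 alternatives ended its call, with adjusted p between 7.1e-04 and 0.127. These included leaving out control replicate 3 or 4 (0.0687 for each), either BB94 array (0.0527 for each) or PD325901 replicate 1, 2 or 3 (0.0927, 0.0909 and 0.127). ATR was at -0.49 (adjusted p = 0.00636) without control replicates 1 and 2 and at -0.19 (adjusted p = 0.109) without replicates 3 and 4. ATM, the kinase that responds to DNA breaks, was not called at -0.08 (adjusted p = 0.787, with a 95% interval of -0.46 to 0.30). Another probe set of ATM was called lower at -0.51 (adjusted p = 0.022).

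CHEK2, the kinase downstream of ATM, and NBN, which recruits ATM to breaks, were spread widely among the control arrays. CHEK2 had log2 values of 9.64, 9.63 and 9.69 in PD325901 arrays, 9.63 and 9.62 in BB94 arrays and 9.84, 9.62, 9.05 and 8.51 in control. Control replicates 3 and 4 thus lay below all 5 treated arrays and replicate 1 above them. The change under PD325901 was 0.40 (adjusted p = 0.277) with all controls, 0.87 (adjusted p = 0.00125) without control replicates 1 and 2, and -0.07 (adjusted p = 0.585) without replicates 3 and 4. Leaving out control replicate 1 alone also gave a call (0.59, adjusted p = 0.0496), within a range of 0.00125 to 0.64 over 20 alternatives. NBN read 11.22, 11.14 and 11.38 under PD325901 and 11.59, 11.53, 10.89 and 10.95 in control. Its change of 0.01 (adjusted p = 0.98) became 0.33 (adjusted p = 0.0186) without control replicates 1 and 2 and -0.31 (adjusted p = 0.0293) without replicates 3 and 4. No direction is given for these 2 genes, although a pair of the other 4 probe sets of NBN was called lower, at -0.35 and -0.29 (adjusted p = 0.00887 and 0.0218).

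RAD50, which tethers broken ends together with NBN, was the other gene called higher. It had log2 values of 9.92, 9.97 and 9.88 in PD325901 arrays, 9.62 and 9.56 in BB94 arrays and 9.29, 9.41, 9.62 and 9.43 in control. All 3 PD325901 arrays lay above the controls, with a 1.40-fold rise (log2 0.49, SE 0.09, adjusted p = 0.00134). The other 2 probe sets of RAD50 were called higher at 0.64 and 0.74 (adjusted p = 7.0e-04 and 0.00102). With arrays centred on their median over genes, which puts the median change of all genes at -0.17 in place of 0.08, RAD50 was at 0.24 and not called (adjusted p = 0.0689), whereas FANCF was at 0.64 and called (adjusted p = 0.00225).

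**Figure D2:**
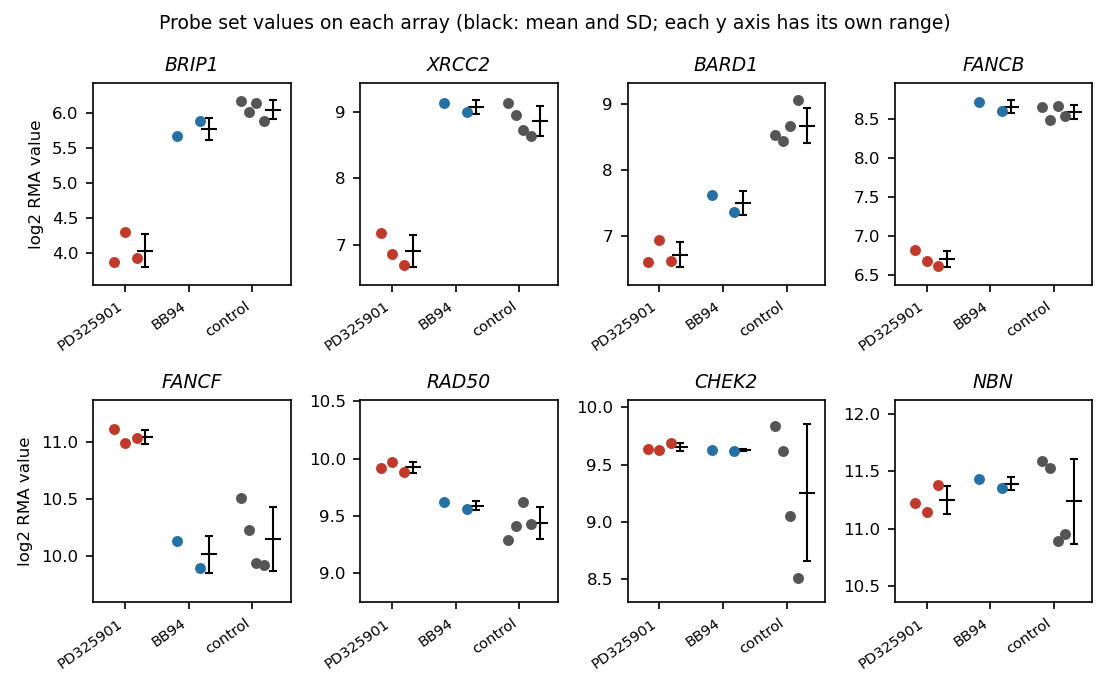
Log2 values of 8 repair genes on every array (dots), by group, with the group mean and SD in black beside them; each y axis has its own range. BRIP1 (below background throughout), XRCC2, BARD1 and FANCB lie lower and FANCF and RAD50 higher on the PD325901 arrays, BARD1 lies between on the BB94 arrays, and CHEK2 and NBN are spread mainly among the 4 controls.

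Where a gene that fell had several probe sets above background on all 9 arrays, the brightest on average gave the smallest fall. Of the 82 probe sets of the 34 genes, 58 lay above background on all 9 arrays, and tested over all 49293 probe sets 41 of these were called lower and 5 higher. Such repeats existed for 7 genes called lower, and all 13 of their other probe sets had a lower log2 change than the highest-mean one. In CHEK1 the log2 changes ran from -1.09 to -0.54, in FANCI from -1.27 to -0.75 and in MSH6 from -1.20 to -0.67. No gene called lower had another probe set called higher.

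**Figure D3:**
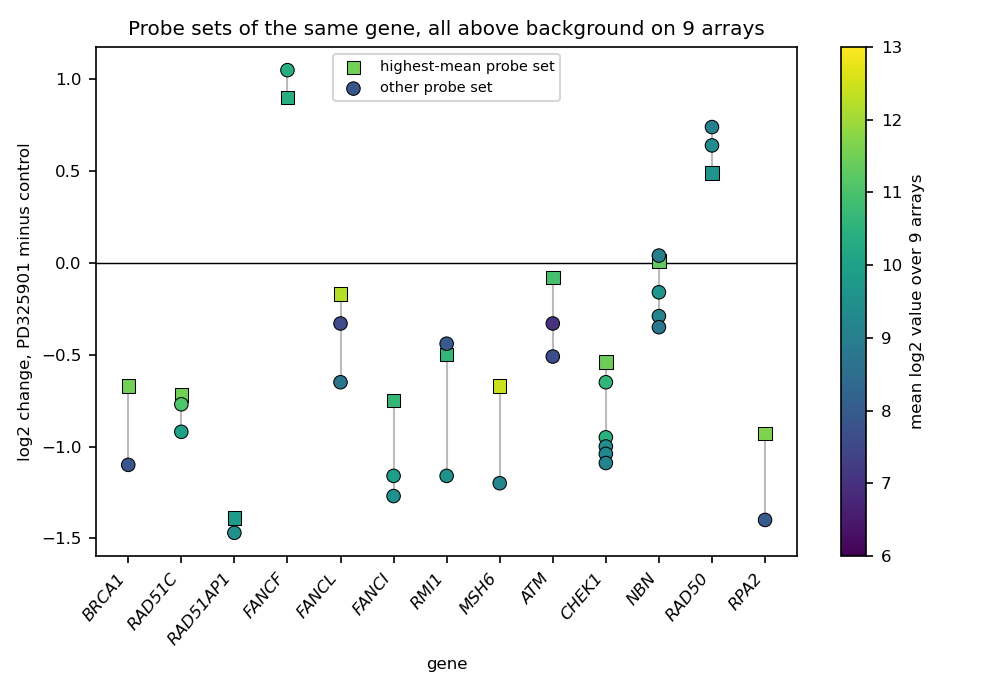
Log2 change (PD325901 minus control, y axis) of every probe set above background on all 9 arrays, for the 13 genes with at least 2 of them (x axis); squares are the highest-mean probe sets, circles the others, and colour gives the mean log2 value. In BRCA1, RAD51C, RAD51AP1, FANCI, MSH6, CHEK1 and RPA2 every circle lies below its square.

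The promoters of BRIP1, XRCC2 and BARD1, the 3 genes with the lowest fitted log2 changes, BRIP1 from values below background, are printed here. RAD50, which rose, is also shown. It was chosen after its values were seen, in place of FANCF, the gene with the highest change, whose window holds an E2F-like match. The windows come from RefSeq (build GRCh38.p14), run from 250 bases before to 50 bases after the listed start, and are written 5′ to 3′ on the gene's strand. They are chr17:61863479-61863778 (minus strand) for BRIP1, chr7:152676092-152676391 (minus) for XRCC2, chr2:214809634-214809933 (minus) for BARD1 and chr5:132556727-132557026 (plus) for RAD50. Capitals mark matches, on either strand, to 4 spellings of an E2F-like motif, to the cell cycle homology element TTTGAA, or to CCAAT. The first E2F-like spelling is TTCCCGC. The second, TTGGCGC, differs from it at inner bases. The third is TTCGCGC. The last spelling searched was TTGCCGC.
BRIP1: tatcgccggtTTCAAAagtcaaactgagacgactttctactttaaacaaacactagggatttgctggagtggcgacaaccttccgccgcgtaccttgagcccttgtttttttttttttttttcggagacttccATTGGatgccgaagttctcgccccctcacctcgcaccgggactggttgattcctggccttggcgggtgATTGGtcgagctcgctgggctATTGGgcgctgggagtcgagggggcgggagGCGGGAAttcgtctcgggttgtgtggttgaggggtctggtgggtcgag
XRCC2: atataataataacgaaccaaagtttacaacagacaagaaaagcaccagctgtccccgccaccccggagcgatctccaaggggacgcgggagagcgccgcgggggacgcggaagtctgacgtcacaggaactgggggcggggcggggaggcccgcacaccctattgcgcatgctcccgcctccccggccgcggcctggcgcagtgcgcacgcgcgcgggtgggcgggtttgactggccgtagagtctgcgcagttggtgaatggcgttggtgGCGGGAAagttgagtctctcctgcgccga
BARD1: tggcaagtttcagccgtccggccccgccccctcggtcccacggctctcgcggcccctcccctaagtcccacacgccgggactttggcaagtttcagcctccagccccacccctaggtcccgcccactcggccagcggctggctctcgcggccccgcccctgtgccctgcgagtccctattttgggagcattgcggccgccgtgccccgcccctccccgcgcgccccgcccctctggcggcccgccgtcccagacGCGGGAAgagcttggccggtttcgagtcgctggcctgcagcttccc
RAD50: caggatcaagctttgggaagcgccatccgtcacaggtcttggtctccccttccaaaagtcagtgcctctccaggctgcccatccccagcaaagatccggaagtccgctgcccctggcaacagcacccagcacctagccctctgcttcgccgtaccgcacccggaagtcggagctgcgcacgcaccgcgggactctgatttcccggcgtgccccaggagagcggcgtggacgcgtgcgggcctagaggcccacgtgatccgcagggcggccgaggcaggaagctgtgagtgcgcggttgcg

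BRIP1, XRCC2 and BARD1 each held the letters GCGGGAA, the reverse complement of the E2F-like TTCCCGC, shortly after the listed start. Counted from 0 at the start, these were bases 2 to 8 in BRIP1, 21 to 27 in XRCC2 and 4 to 10 in BARD1. The RAD50 window held no match. Promoter windows were found for 29 of the 34 genes, taking the first listed per gene. An E2F-like match stood in 13 of the 20 windows of genes called lower, in 3 of the 7 of genes not called and in 1 of the 2 of genes called higher, FANCF. Of all 27305 windows, 13.1% held one. For TTTGAA the counts were 3 of 20, 1 of 7 and 0 of 2, against 15.4% of all windows, and for CCAAT 10 of 20, 5 of 7 and 1 of 2, against 35.7%. Matches of letters are descriptions, and no binding was measured. The part of E2F factors in the changes was not tested.

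BB94 left nearly all of these genes without a call and lowered BARD1. Limma called 1 of the 34 lower and 0 higher, against 1.09% and 0.491% of all genes, and at an unadjusted p under 0.05 it had 2 lower and 2 higher, against 7.52% and 3.34% of all genes. This comparison uses the same 4 control arrays as that of PD325901. BARD1 had log2 values of 7.63 and 7.37 in BB94 arrays, against 8.53, 8.44, 8.66 and 9.05 in control. Both BB94 arrays lay below all 4 controls, a 2.26-fold fall (log2 -1.17, SE 0.17, adjusted p = 0.00672). BARD1 has only 1 probe set here, and its call ended when BB94 replicate 2 was left out (log2 -1.04, adjusted p = 0.156). Over 20 alternatives adjusted p ranged between 0.003 and 0.156. Without that replicate the comparison rests on 1 BB94 array, whose spread is taken from the other groups.

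The other 33 genes had log2 changes between -0.29 and 0.37 under BB94. For 22 of them the 95% interval lay within 0.5 of 0 on either side, and the lowest bound of any was -0.58, for BRIP1. Falls of the size seen for XRCC2 or BLM under PD325901 thus lay outside the intervals of the genes measured above background. For BRIP1 and PMS2, below background on all 9 arrays, the intervals do not bound a change of the transcript. BRCA1, the partner of BARD1, had log2 values of 11.88 and 11.76 in BB94 arrays, against 11.96, 11.80, 11.66 and 11.46 in control (log2 0.10, adjusted p = 0.896). A dimmer BRCA1 probe set was called lower at -0.56 (adjusted p = 0.0219), so BRCA1 depended on the probe set. Still dimmer BRCA1 probe sets, above background on 2, 0 and 0 of 9 arrays, were at -0.44, -0.81 and -0.28. None of these was called (adjusted p = 0.196, 0.057 and 0.529). A dimmer RPA1 probe set, above background on 4 of 9 arrays, was also called lower at -0.51 (adjusted p = 0.0375), while the highest-mean one was at 0.02. CHEK1 lay above all controls, at 11.91 and 11.87 against 11.66, 11.51, 11.55 and 11.47, and was not called (log2 0.34, adjusted p = 0.22). Without control replicates 1 and 2, RAD54B, CHEK2 and NBN were called higher under BB94 (log2 0.50, 0.84 and 0.47, adjusted p = 0.0226, 0.0171 and 0.0283). In that setting 859 of all 18132 genes were called higher under BB94, against 89 with all controls.

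**Figure D4:**
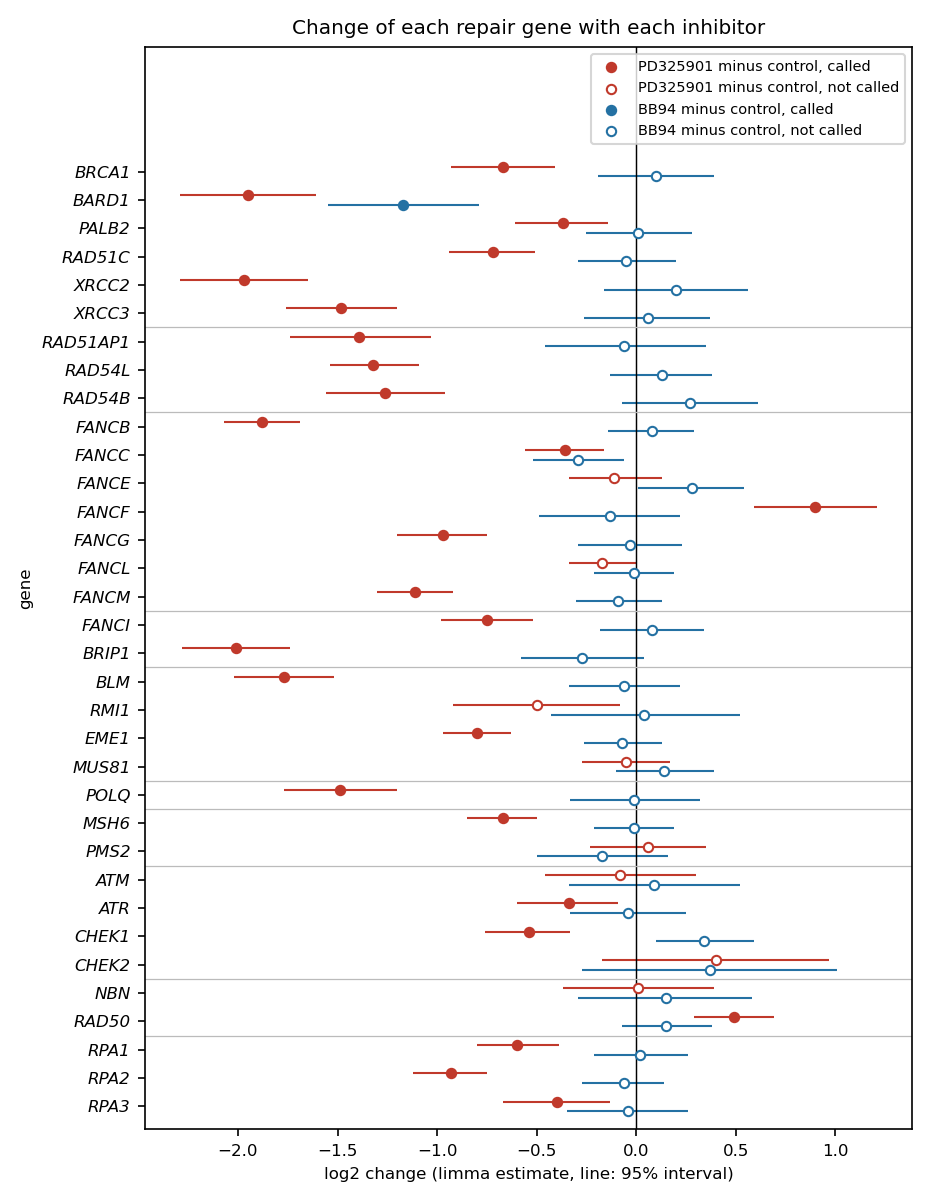
Log2 change of each of the 34 repair genes (rows, lines separate role groups), for PD325901 minus control (red) and BB94 minus control (blue), with the 95% interval from limma; filled points were called. Most red points lie left of 0 and filled, FANCF and RAD50 lie to the right, and the filled blue point is BARD1.

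Set directly against BB94, PD325901 lowered 22 of the 34 genes, against 10.2% of all genes, and raised 2, against 21% of all genes. The median log2 difference was -0.71, against 0.11 over all genes. XRCC2 was 4.50-fold lower (adjusted p = 5.9e-06), FANCB 3.89-fold (3.6e-07) and BLM 3.28-fold (5.3e-06). FANCF was 2.04-fold higher (adjusted p = 7.9e-04) and RAD50 1.26-fold (0.0339). The RAD50 call ended under 9 of 20 alternatives (highest adjusted p = 0.952), among them leaving out control replicate 2, either BB94 array or any PD325901 array. BARD1, the gene that fell under both inhibitors, was 1.71-fold lower with PD325901 than with BB94 (log2 -0.78, SE 0.18, adjusted p = 0.00726). That call ended when BB94 replicate 1 was left out (log2 -0.65, adjusted p = 0.0789, the highest of 20 alternatives, with 4.0e-04 the lowest). FANCC was not called between the inhibitors (log2 -0.07, 95% interval -0.31 to 0.17, adjusted p = 0.694). FANCE, not called with either inhibitor against control, was called lower with PD325901 than with BB94 (log2 -0.38, adjusted p = 0.0392). The calls of FANCE and PALB2 ended under 7 of 20 alternatives each (highest adjusted p = 0.159 and 0.228), among them leaving out control replicate 2, either BB94 array or any PD325901 array.

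Among other genes of the same pathways both directions occurred under PD325901. Of 45 measured genes, 22 fell, 11 rose and 12 were not called, with a median log2 change of -0.26. The shares were 48.9% lower and 24.4% higher, against 12.3% and 22.8% of all genes, so the rises were near the share of all genes. Among the 45 genes CLSPN, an adaptor that activates CHEK1, fell 4.63-fold (log2 -2.21, adjusted p = 2.6e-06). EXO1, an exonuclease of end trimming and mismatch repair, fell 3.82-fold (adjusted p = 2.8e-07), and the nuclease and helicase gene DNA2 had a log2 change of -1.31 (adjusted p = 0.0157). DNA2 read 6.72, 6.46 and 6.80 in PD325901 arrays and 8.77, 8.58, 7.48 and 7.03 in control, so its size depended on the controls: -2.02 without replicates 3 and 4 and -0.60 without replicates 1 and 2. Its call ended without PD325901 replicate 2 (adjusted p = 0.0603). For the other repair routes, the shares called lower and higher stand beside 12.3% and 22.8% of all genes. Of 19 genes of base excision repair, 6 fell and 3 rose (31.6% and 15.8%, median -0.17), with the glycosylase genes NEIL3 and UNG 2.35-fold and 2.25-fold lower and NEIL1 higher (log2 1.23, adjusted p = 5.5e-05). Of 14 genes of non-homologous end joining, 4 fell and 5 rose (28.6% and 35.7%, median -0.02). The 3 called genes with the largest changes there were all higher, TP53BP1, which limits end trimming, by 1.67-fold, POLL by 1.53-fold and DCLRE1C by 1.48-fold (adjusted p = 4.0e-05, 9.0e-04 and 7.2e-04). Of 20 genes of nucleotide excision repair, 2 fell and 4 rose (10% and 20%, median 0.05), both near the shares of all genes, with ERCC6 1.88-fold and the damage sensor gene XPC 1.42-fold higher (adjusted p = 1.8e-04 and 0.021). BB94 gave 0 calls by limma in these 4 lists. At an unadjusted p under 0.05 it had 5 of 45, 1 of 19, 0 of 14 and 4 of 20 genes in the order above, against 1968 of all 18132 genes. Whether these lists differ from each other was not tested.

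Cell cycle genes moved with the repair genes. Of 40 S phase genes, 39 fell under PD325901 and none rose, with a median log2 change of -1.31, and of 30 G2/M genes 28 fell, with a median of -0.64. The S phase median by array was -1.24, -1.30 and -1.36 in PD325901 arrays, 0.05 and -0.05 in BB94 arrays and between -0.05 and 0.02 in control arrays. GINS2, CDC45 and CCNE2 led the S phase list with 4.97-fold, 4.42-fold and 4.01-fold falls. Under BB94 limma called 0 genes in both lists. At an unadjusted p under 0.05 it had 0 of 40 S phase and 8 of 30 G2/M genes, against 1968 of all 18132 genes. The G2/M median by array was -0.1 and -0.26 in BB94 arrays and between -0.03 and 0.03 in control arrays. In such bulk samples, fewer cells in S or G2 phase and less RNA of a gene per cell cannot be told apart, and the part of the cell cycle in the fall of the repair genes was not tested.

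**Figure D5:**
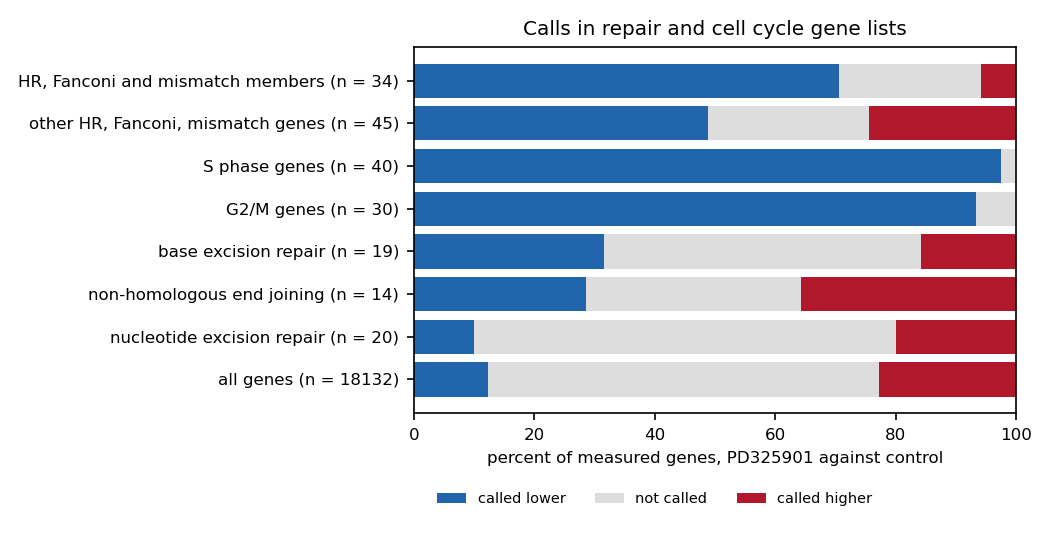
Percent of measured genes called lower (blue), not called (grey) and called higher (red) in PD325901 against control, for the 34 repair genes, other repair lists, the S phase and G2/M lists and all 18132 genes. The lower share is 70.6% in the 34 genes and 97.5% in the S phase list, against 12.3% of all genes.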

How the data were processed

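RNA from 9 cultures was read on Affymetrix PrimeView arrays. Per the series design text and the submitters' processing notes, the deposited log2 values were made by the authors with RMA from the affy package, which corrects background, quantile-normalizes and summarises probe sets. They were used as deposited, without further scaling. Of 49395 probe sets, 102 Affymetrix controls were left out. The platform annotation gave 1 symbol to 44988, several to 1832 and none to 2473, and probe sets with several named no gene. A gene's highest-mean probe set represented it. Arrays carry no read depth, so their number limits the precision.

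The test was limma 3.58.1, run in R 4.3.3 (lmFit and eBayes, a coefficient per group, all 9 arrays, 6 residual degrees of freedom, two-sided), adjusted over 18132 genes. The procedure was run on simulated data with independent noise in each gene, which does not test for shifts shared across genes. Every printed adjusted p is from limma, for other probe sets over 49293 probe sets. The genes, lists, rules and alternatives were chosen with earlier results of these data known. Full values are given for the 12 largest called changes under PD325901 and for each gene called higher there or called under BB94, and up to 3 called genes are named per other list. Further genes were named after their values were seen. The rule for promoters also took FANCF, whose window is not shown. No pair of the 36 array pairs held equal values throughout. The labels do not say whether cultures with the same replicate number were paired. Correlations of same-numbered deviations from group means ran from -0.19 to 0.12. With so few arrays per group, these correlations cannot exclude a pairing.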

Additional observations from a re-analysis of the deposited data

Results flagged for a closer look

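POLQ in control replicate 1 stood apart from the other 3 controls, at a log2 value of 9.39 against 8.99 to 9.04. The gap was 0.872 of the group's whole range, above Dixon's 95% critical value for 4 samples. This test was run on 34 genes and found 1, where chance gives about 1 in 20. Without that array POLQ was still called lower under PD325901, as under each of the 20 alternatives (highest adjusted p = 1.3e-04).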

How the results depend on the processing

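Of the 26 genes called in PD325901 against control, 21 were called in the same direction under each of the 20 alternatives in which they were tested, and PALB2, FANCC, ATR, RAD50 and RPA3 were not. Of the 8 genes not called, 0 kept both their direction and the lack of a call under all alternatives. Centring called FANCE (-0.36), FANCL (-0.42) and MUS81 (-0.30) lower, and the mean of all probe sets called FANCL (-0.38). Leaving out 1 array at a time gave 20 to 24 genes lower and 2 to 3 higher in PD325901 against control, 0 to 1 lower in BB94 against control, and 19 to 23 lower and 1 to 2 higher in PD325901 against BB94. The median change ran from -0.71 to -0.64 in PD325901 against control and from -0.77 to -0.65 in PD325901 against BB94. Centring arrays on their median over genes gave 1 gene higher in PD325901 against control and 1 against BB94, with medians of -0.92 and -1.03, and turned the calls over all genes to 28% lower and 13% higher. The mean of all probe sets gave a median of -0.80. Without control replicates 1 and 2 there were 4 genes higher in PD325901 against control (median -0.61) and 3 higher in BB94 against control. Over all 18132 genes that setting called 32.1% higher in PD325901 against control and 859 genes higher in BB94 against control. Cyclic loess and the replicate block each gave 1 gene higher in PD325901 against BB94, FANCF. The replicate block also ended the call of ATR (adjusted p = 0.0751) and gave one for RMI1 (adjusted p = 0.0103). Reversed signs occurred in genes that were not called with all arrays. MUS81 was at 0.04 with array weights and without control replicates 3 and 4. PMS2 was at -0.20 with centring, -0.03 with cyclic loess, -0.05 without control replicate 2 and -0.01 without PD325901 replicate 1, and 0.16 at most with 1 array left out. ATM was between -0.22 and 0.07 with 1 array left out (0.07 without control replicate 1), and 0.20 without replicates 1 and 2. CHEK2 was at -0.07 without control replicates 3 and 4. NBN was at -0.15 with the mean of probe sets, -0.19 with array weights, -0.25 with centring, -0.09 with the replicate block, -0.11, -0.09 and -0.06 without control replicate 3, control replicate 4 or PD325901 replicate 3 (0.12 at most with 1 array left out), and -0.31 without control replicates 3 and 4. The filter on the mean left out BRIP1 and PMS2. The causes of these shifts were not tested. With 2 BB94 arrays the smaller changes under BB94 could not be resolved.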
